A study of Mus musculus with 16 samples.

Results

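Protocadherins are the largest family of cadherin cell adhesion proteins, and 70 of the 21684 protein-coding genes in both tables of the series carry a symbol beginning with Pcdh. These 70 genes were taken by symbol alone, with no measured value used. They comprise 14 genes of the alpha cluster, 22 of the beta cluster, 22 of the gamma cluster and 12 genes that lie outside the clusters. All 58 clustered genes lie on chromosome 18 of the mouse build GRCm39.

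Protocadherins bind the same protein on a facing cell through their extracellular cadherin repeats. In the alpha and gamma clusters each gene has a first exon of its own that is spliced to constant exons shared by the whole cluster, whereas beta genes have a single coding exon, and a neuron makes only some of these isoforms, which helps it tell its own branches from those of other neurons. The unclustered delta protocadherins act in axon growth and cell sorting, delta1 members through a tail that binds protein phosphatase and delta2 members such as Pcdh10 through the WAVE complex that drives actin assembly.

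The study asked how sympathetic nerves and pancreatic fibroblasts alter each other's transcription, by bulk RNA-seq of 16 libraries. The fibroblasts were mPSC1, an immortalized mouse pancreatic stellate cell line, sequenced after culture alone (PSC, n = 3) or with superior cervical ganglion explants (PSC+SCG, n = 3). The ganglion explants, from wild-type C57BL/6J pups of postnatal days 1 to 4, were sequenced after culture alone (SCG, n = 3), with mPSC1 cells (SCG+PSC, n = 4) or with NIH 3T3 cells, the fibroblast line called MEF here (SCG+MEF, n = 3). Cocultures ran for about 70 hours across a porous insert with 10000 fibroblasts and between 8 and 13 pooled explants in a well, so the partners shared medium without touching. The authors' model held dated experimental batches as a covariate, but no label ties a library to a date, gives the sex of the pups or says which libraries came from separate cultures. The main tests here leave the batch out and p-values measure the spread between these libraries, which may be technical, while a block on the replicate number is given beside them.

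Reads on genes ranged from 31900689 to 41632381 in the 14 libraries where they could be recovered, and the unit below is the authors' normalized count, comparable within a table but not between the PSC and the SCG table, which were normalized separately. The explants were mixtures: all 12 sympathetic neuron markers, all 8 glial, all 7 fibroblast, all 7 endothelial and all 8 macrophage markers had means of at least 10 in each SCG group. In such bulk samples fewer cells of a type and less RNA per cell cannot be told apart. In PSC all 7 fibroblast markers were present, Sox10 and Foxd3 of the glial list and Phox2a of the neuronal list were at 0 in every library, and Hand2 was the most abundant neuronal marker. SCG+PSC replicates 3 and 4 were the most alike pair of any SCG group, with an SD of log2 differences of 0.190 over 12849 genes against 0.292 to 0.605 for the other pairs, and replicate 4 was kept out of the main tests.

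Alpha and gamma genes were measured by their own first exons only. The constant exons belong to every gene of a cluster, and reads on them cannot be given to 1 gene and were not counted. Between 40.5% and 46.4% of the exon bases of gamma genes and at least 47.7% of those of alpha genes lie in other genes too, against 0% for the 12 unclustered genes and for 20 of the 22 beta genes. Pcdha4 kept 93 own bases of 5367, with 98.3% shared, and was at 0 in all 16 libraries, which says nothing of its expression. Levels between genes are therefore given as normalized count per kb of own exon, for genes with at least 500 own bases.

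In PSC cultured alone most alpha genes were not detected, and most beta genes were detected but stayed under 10 per kb. Of the 14 alpha genes 10 (with Pcdha4) were at 0 in every PSC library and only Pcdhac2, a C-type gene of the cluster's end that in serotonergic axons serves even spacing, reached 10 per kb (12.6 ± 1.52 per kb, SD, n = 3). Its normalized counts were 42.3, 34.1 and 42.4 in PSC and 32.6, 30.6 and 34.0 in PSC+SCG, so the nearest libraries of the groups, at 34.1 and 34.0, were all but equal. Pcdha8 had the next level among alpha genes, 0.458 ± 0.793 per kb, from 1 library with 3.41 normalized counts. Of the 22 beta genes 2 were at 0 in every PSC library and 12 had a mean of at least 10 normalized counts. In PSC 5 of the 22 reached 10 per kb, led by Pcdhb22 with 41.1 ± 15.2 and Pcdhb17 with 27.4 ± 5.99 per kb.

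The gamma cluster held most of the clustered counts of PSC. All 22 gamma genes had a mean of at least 10 normalized counts and 18 reached 10 per kb of own exon (14 per kb of all exons). Pcdhgc3, a C-type gene whose protein binds the Wnt pathway scaffold Axin1, stood far above the rest with 3281 ± 340 per kb. Pcdhgc5, which associates with synaptic GABA receptors in brain, followed with 382 ± 78.5 and the A-type gene Pcdhga11 with 202 ± 6.08 per kb. Gamma genes held 93.7% ± 1.17 (SD, n = 3) of the normalized counts of all clustered genes in PSC and 92.3% ± 0.954 in PSC+SCG.

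In SCG nearly every clustered gene was present. At least 10 per kb was reached by 13 of 14 alpha, 21 of 22 beta and 22 of 22 gamma genes. Pcdhgc3 again had the highest level, 3078 ± 369 per kb, followed by Pcdhac2 with 410 ± 211. The alternate alpha genes lay between Pcdha8 with 11.1 ± 1.61 and Pcdha12 with 77.5 ± 30.4 per kb. Among beta genes Pcdhb9 (118 ± 22.3) and Pcdhb17 (106 ± 12.4) led and Pcdhb1 was lowest (1.81 ± 1.23). Pcdhgb6 (mean 218) and Pcdhga11 (mean 217) led the B-type and A-type gamma genes, and their libraries overlapped. Gamma genes held 66.5% ± 5.72 of the clustered counts in SCG, beta genes 21.1% ± 0.776 and alpha genes 12.4% ± 5.25.

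**Figure D1:**
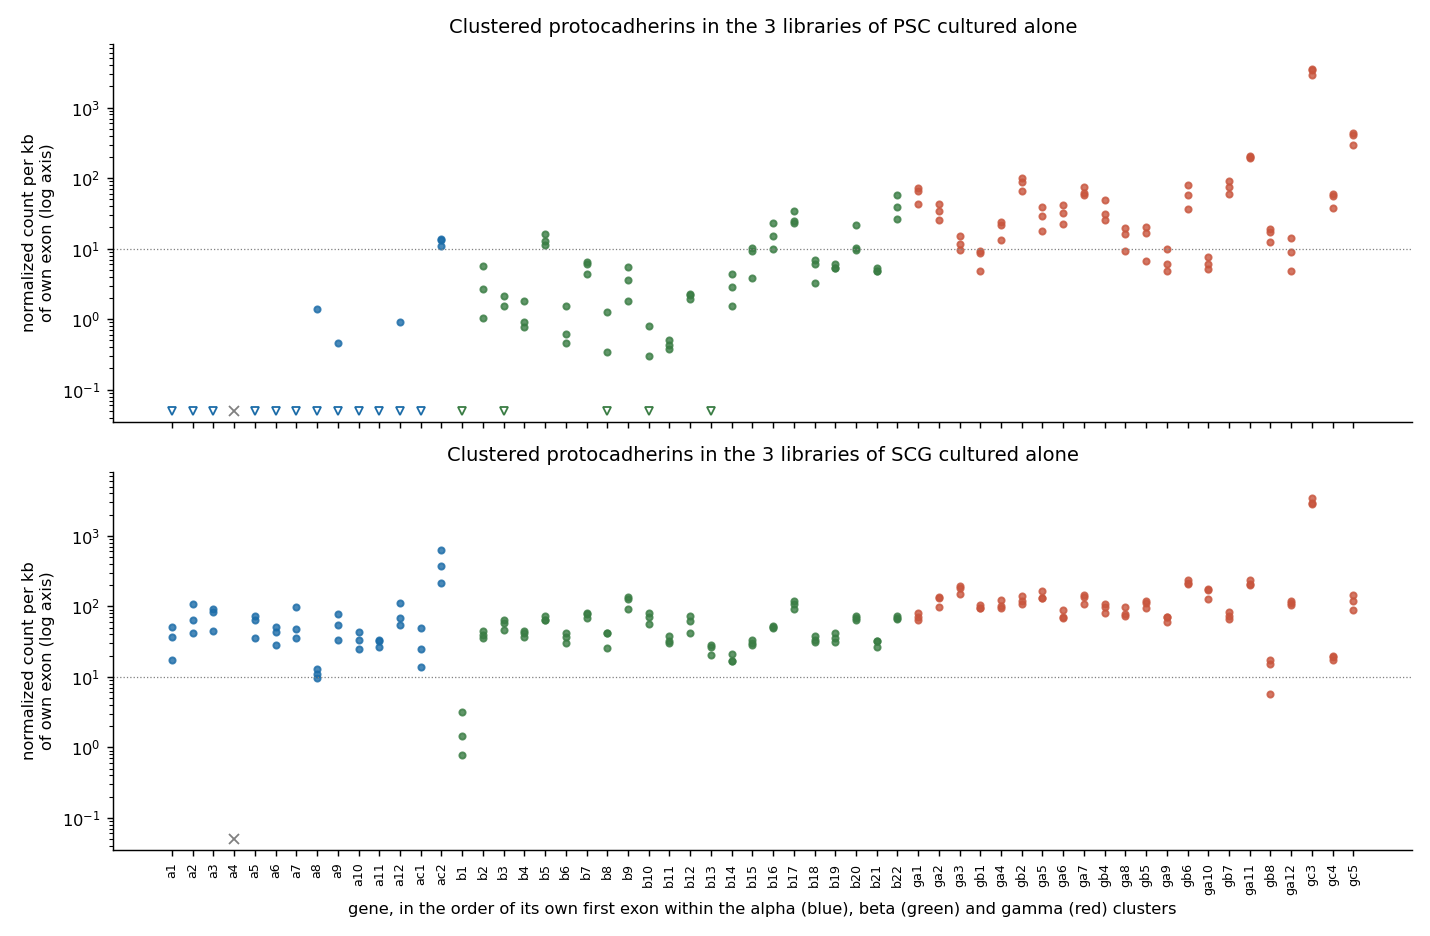
Level of the 58 clustered protocadherins in the 3 libraries of PSC (top) and of SCG (bottom) cultured alone, as normalized count per kb of own exon on a log axis, in gene order within the alpha (blue), beta (green) and gamma (red) clusters. Each point is 1 library, open triangles mark genes at 0 in at least 1 library, the grey cross marks Pcdha4, which has too few own bases, and the dotted line is 10 per kb. Alpha genes other than Pcdhac2 and Pcdha4 sit at or near 0 in PSC and above 10 per kb in SCG on average, and Pcdhgc3 is the highest gene in both panels.

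The beta genes of PSC were on the whole higher toward the end of their cluster, with exceptions such as Pcdhb5 (13.3 per kb) and Pcdhb13 (at 0), both named after their values were seen. The first 11 had a median of 1.17 per kb and the last 11, which end with Pcdhb22, a median of 5.55 per kb. Spearman's rho of level and place was 0.56 over the 22 genes in PSC and 0.60 in PSC+SCG, and 0.05 in SCG, where the medians of the first and last 11 were 41.0 and 36.4 per kb. These are correlations across genes that share the same 3 libraries, given as a description. The 19 A-type and B-type gamma genes had a rho of -0.08 in PSC and -0.02 in SCG.

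Of the 12 unclustered genes 6 reached 10 per kb in PSC. The order by level in PSC was Pcdh18 (555 ± 61.3 per kb), Pcdh19 (347 ± 70.2), Pcdh7 (278 ± 39.5), Pcdh1 (93.3 ± 9.46), Pcdh9 (42.1 ± 9.96), Pcdh17 (19.7 ± 3.39) and Pcdh10 (9.66 ± 1.78). Pcdh18 binds the adaptor Dab1, Pcdh19 is the gene mutated in an X-linked epilepsy, and Pcdh7 and Pcdh1 are delta1 members. Of these neighbours only Pcdh19 and Pcdh7 overlapped between libraries. Pcdh20 was at 3.31 ± 1.67 and Pcdh15, a tip link protein of inner ear hair cells, at 0.678 ± 0.421 per kb. Pcdh8 and Pcdh11x were at 0 in all 6 PSC and PSC+SCG libraries, and Pcdh12, a gene known from endothelial cells, was at 0 in all but 1 of them, where it had 0.987.

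SCG had another order. Pcdh1 led with 1522 ± 103 per kb, followed by Pcdh10 with 330 ± 112, and both were apart from the next gene in every SCG library. Pcdh18 (182 ± 10.0), Pcdh7 (158 ± 24.6), Pcdh17 (151 ± 51.7), Pcdh19 (126 ± 44.7), Pcdh20 (97.7 ± 22.2) and Pcdh9 (83.0 ± 6.00) formed a middle group in which each gene overlapped the next. Pcdh8 (15.3 ± 5.65), Pcdh12 (12.9 ± 2.57), Pcdh11x (7.58 ± 2.82) and Pcdh15 (5.04 ± 3.13) were low. All 12 unclustered genes had a mean of at least 10 normalized counts in SCG, against 9 of 12 in PSC.

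**Figure D2:**
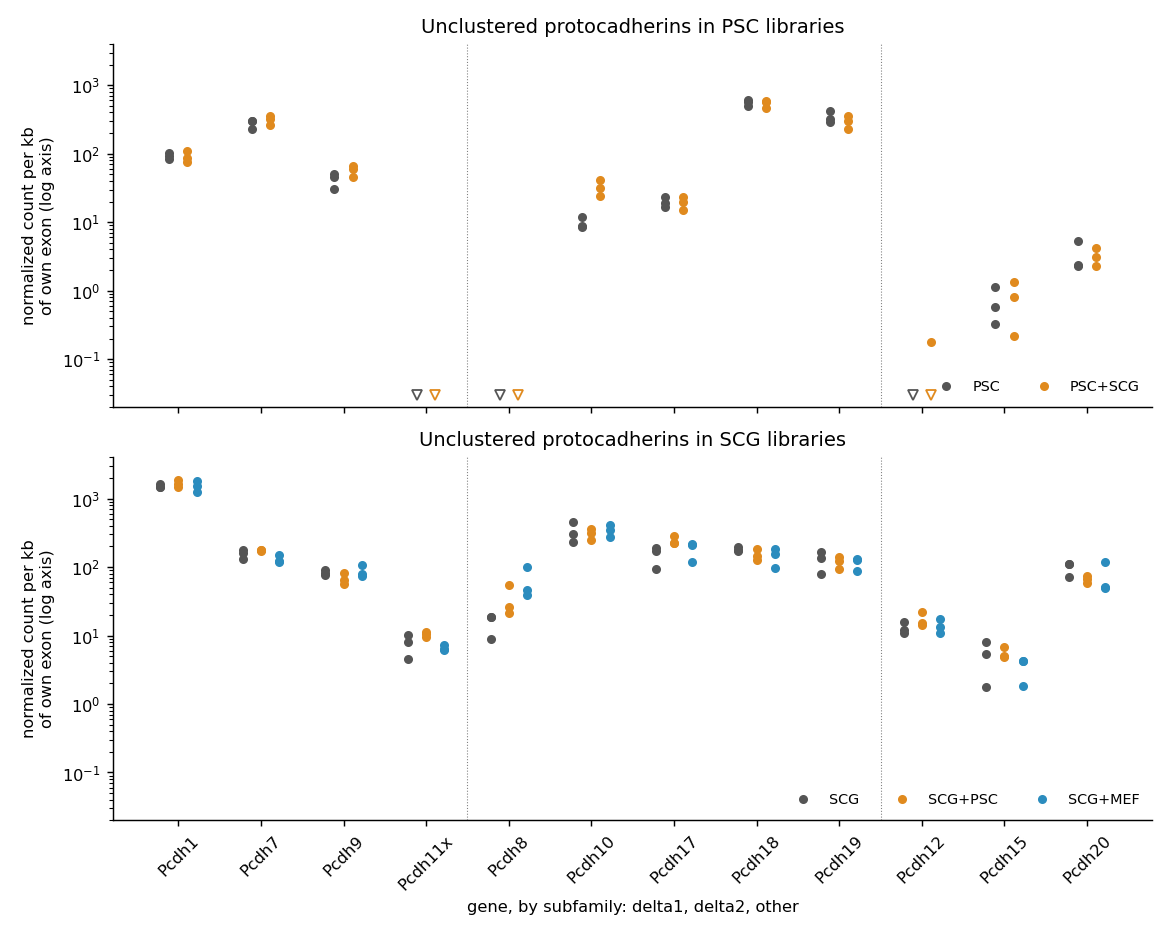
Level of the 12 unclustered protocadherins as normalized count per kb of own exon on a log axis, in PSC libraries (top, PSC and PSC+SCG) and SCG libraries (bottom, SCG, SCG+PSC and SCG+MEF, replicates 1 to 3). Each point is 1 library and open triangles mark a group with a library at 0. Pcdh10 is higher in the 3 PSC+SCG libraries than in the 3 PSC libraries, and Pcdh8 has only open triangles in the top panel and is higher in both coculture groups than in SCG in the bottom panel.

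The first comparison asks what nerve explants change in fibroblasts. Pcdh10 (ENSMUSG00000049100, chromosome 3 from 45332833 to 45390058, forward strand), a delta2 protocadherin that recruits the WAVE complex to cell contacts and guides axon growth, had the largest fold change of the protocadherins tested. Its normalized counts were 186.0, 134.0 and 140.6 in PSC and 494.4, 663.1 and 384.0 in PSC+SCG, replicates 1 to 3. The groups did not overlap, and all 3 same-numbered pairs were higher with explants. The log2 fold change was 1.72 (SE 0.243, limma). Its unadjusted p was 7.55e-05 and its adjusted p 0.9999, so it did not pass the threshold of an adjusted p of at most 0.05 with a log2 fold change of at least 0.5. With the replicate number as a block the SE was 0.178 and the adjusted p 8.34e-06. The study, whose DESeq2 model held the batch, listed Pcdh10 among the genes upregulated in PSC+SCG. The adjusted p with the block was 0.00823, 1.29e-05 and 2.66e-17 without replicates 1, 2 and 3, fits of 4 libraries each, and the log2 fold change 1.87, 1.42 and 1.85. Fits this small rest mostly on the spread that limma borrows from other genes, so these p-values say little of the spread between libraries.

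Pcdh10 is abundant in the explants on the other side of the insert, and markers of neurons were looked for in the PSC+SCG libraries. Prph, the most abundant neuronal marker of SCG with a mean of 57523 there, was at 27.1, 23.8 and 13.5 in PSC and 12.9, 21.7 and 7.45 in PSC+SCG. Th and Snap25 were at 0 in all 3 PSC+SCG libraries. Other markers rose with explants for each replicate number. Dbh was at 0.846, 1.14 and 1.93 in PSC and 0.989, 2.96 and 3.19 in PSC+SCG. Stmn2 was at 5.92, 1.14 and 0 in PSC and 5.93, 1.97 and 3.19 in PSC+SCG. Gata3 was at 337, 411 and 357 in PSC and 351, 418 and 420 in PSC+SCG. Prph fell for each number, and the rest of the list neither rose nor fell throughout. The summed level of the 12 neuronal markers was 1122 to 1205 in PSC and 963 to 1445 in PSC+SCG, of which Hand2 made 554 to 996 in PSC+SCG. Pcdh1 and Pcdhac2, which are also abundant in SCG, had log2 fold changes of -0.06 (SE 0.175) and -0.27 (SE 0.311) in PSC+SCG. Summed glial markers were 189, 161 and 131 in PSC and 200, 171 and 177 in PSC+SCG (8 genes, Foxd3 at 0 in both). Summed macrophage markers were 313, 226 and 259 in PSC and 327, 243 and 349 in PSC+SCG. Both sums rose with explants for each replicate number. Pericyte markers summed to 1694 to 2997 in PSC and 2250 to 3291 in PSC+SCG, and fell in replicate 1 only. The endothelial sum fell in replicates 1 and 2 and rose in replicate 3. The part of explant RNA in the values of Pcdh10 was not tested.

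No protocadherin of the 52 tested passed the threshold without the block (0 of 14541 protein-coding genes did, 0%). In limma's test 1 of the 52 and 205 of the 14541 had an unadjusted p under 0.05. With the block 1 passed, Pcdh10, against 76 protein-coding genes or 0.523%. Pcdh10 and Pcdhac2 were the 2 members whose groups did not overlap, and 4.37% of protein-coding genes did not. Of the 18 members not tested for a sum under 10, 13 were alpha genes, 2 were beta genes (Pcdhb1 and Pcdhb13) and 3 were Pcdh8, Pcdh11x and Pcdh12.

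The other members of PSC showed smaller differences. Pcdhga9 had normalized counts of 26.2, 15.9 and 12.5 in PSC and 35.6, 45.4 and 23.4 in PSC+SCG, with a log2 fold change of 0.91 (SE 0.434, limma, adjusted p 0.9999, 0.419 with the block). Pcdhb18 had 34.7, 30.7 and 16.4 in PSC and 60.3, 52.3 and 27.7 in PSC+SCG, with a log2 fold change of 0.75 (SE 0.442, limma, adjusted p 0.9999, 0.468 with the block). The groups overlapped for both genes, since PSC+SCG replicate 3 was low. The 20 beta genes tested had a median log2 fold change of 0.40 and 13 of them lay above 0, the 22 gamma genes a median of 0.13 with 16 above 0, and the 9 unclustered genes a median of 0.02 with 5 above 0. Over all 52 the median was 0.13 with 34 above 0, beside a median of 0.01 and 53.2% above 0 for all protein-coding genes tested. Its direction turned on single libraries. Without PSC replicate 3 the median was -0.06 with 23 of 51 above 0, and without PSC+SCG replicate 2 -0.06 with 23 of 49. Without PSC+SCG replicate 3 it was 0.46 with 44 of 51. The abundant genes moved little: the log2 fold change was -0.03 (SE 0.173) for Pcdhgc3, 0.14 (SE 0.224) for Pcdhgc5, -0.04 (SE 0.142) for Pcdh18, 0.17 (SE 0.164) for Pcdh7 and -0.24 (SE 0.196) for Pcdh19. Pcdh9 had a log2 fold change of 0.47 (SE 0.227, limma, adjusted p 0.9999, 0.147 with the block).

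Replicates 3 stood apart for the clustered genes of PSC. PSC replicate 3 was the lowest library for 20 of 22 gamma and 18 of 20 beta genes, and PSC+SCG replicate 3 for 22 of 22 and 15 of 20. The summed normalized count of the clustered genes was 13814, 13491 and 10777 in PSC and 13934, 15842 and 10083 in PSC+SCG. For the unclustered genes it was 12876, 12626 and 13607 in PSC and 14361, 12791 and 13357 in PSC+SCG, with replicate 3 not lowest. The summed fibroblast markers were also lowest in both replicates 3 (457022 and 395936, against 599812 to 682210 in the other 4), and the summed cycling markers highest (73514 and 71415, against 51101 to 59591). Their part in the result was not tested.

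**Figure D3:**
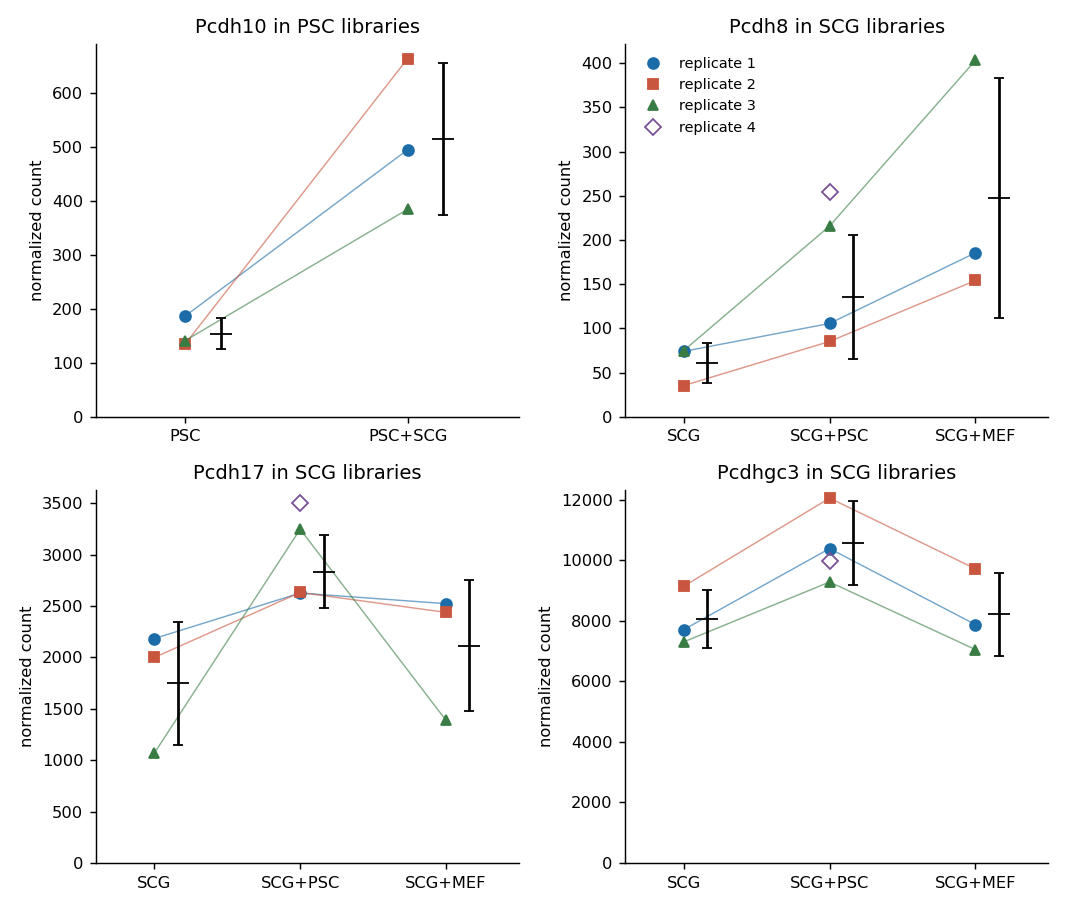
Normalized counts per library of Pcdh10 in PSC and PSC+SCG, and of Pcdh8, Pcdh17 and Pcdhgc3 in SCG, SCG+PSC and SCG+MEF, on linear axes from 0. Lines join libraries of the same replicate number, the open diamond is SCG+PSC replicate 4, and black marks give the mean and SD of replicates 1 to 3. Pcdh10 is above 380 in every PSC+SCG library and below 190 in every PSC library, and Pcdh8 is lowest in SCG for each replicate number.

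The next comparisons ask what fibroblasts change in explants. Pcdh8 (ENSMUSG00000036422, chromosome 14 from 80004215 to 80008752, reverse strand), a delta2 protocadherin known from synapses, where it takes N-cadherin off the surface, had the largest fold change against SCG in both cocultures. Its normalized counts were 73.9, 35.2 and 74.8 in SCG, 185.5, 154.2 and 403.4 in SCG+MEF, and 105.5, 85.2 and 215.8 in SCG+PSC, with 254.2 in SCG+PSC replicate 4. Every coculture library was above every SCG library, and in each same-numbered trio the order was SCG, SCG+PSC, SCG+MEF. Pcdh8 was at 0 in all 6 libraries of mPSC1 cells, and NIH 3T3 cells were not sequenced.

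For SCG+MEF against SCG the log2 fold change of Pcdh8 was 1.94 (SE 0.458, limma) with an adjusted p of 1, and with the replicate block the SE was 0.222 and the adjusted p 0.00418. For SCG+PSC against SCG it was 1.09 (SE 0.458, limma) with an adjusted p of 1, and 0.0315 with the block. Both comparisons share the SCG libraries. The call of SCG+PSC rested on all 3 sets of libraries, since the adjusted p with the block was 0.0592, 0.118 and 0.234 without replicates 1, 2 and 3. That of SCG+MEF was lost without replicate 3 only, with adjusted p of 0.00580, 0.0167 and 0.0942. DESeq2 on recovered reads called Pcdh8 in SCG+MEF also without a block (adjusted p 0.0215). The difference between the cocultures, SCG+PSC against SCG+MEF, was -0.85 (SE 0.458, limma) with an adjusted p of 1, 0.113 with the block and 0.0151 in DESeq2 with the block, and these groups overlapped.

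Marker sums of the explants overlapped between SCG and both cocultures as groups, but some moved in every same-numbered pair. The 12 neuronal markers summed to 124905 to 293006 in SCG, 143673 to 253372 in SCG+PSC and 181214 to 273871 in SCG+MEF, and the 8 glial markers to 59087 to 77603, 62100 to 76419 and 68045 to 80932. The 6 cycling markers summed to 5058 to 17345, 14687 to 25038 and 6128 to 18540, the 5 pericyte markers to 19438 to 41088, 17936 to 19821 and 15389 to 26057. The cycling sum was higher in SCG+PSC than in SCG in all 3 pairs (5058 to 14687, 17345 to 25038 and 8337 to 17025) and in SCG+MEF likewise (to 6128, 18540 and 9226). The pericyte sum was lower in all 3 pairs of SCG+PSC (41088 to 19821, 19438 to 19330 and 35326 to 17936) and of SCG+MEF (to 17148, 15389 and 26057). The fibroblast sum was higher in all 3 pairs of SCG+MEF (208256 to 286399, 390833 to 405357 and 272633 to 311040). In SCG+PSC it was higher in replicates 1 and 3 (to 307882 and 330109) and all but equal in replicate 2 (390570). Of the fibroblast markers Dcn and Lum had the order of Pcdh8 in every trio, and the others did not. The part of these sums and markers in the values of Pcdh8 was not tested.

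Pcdh17 (ENSMUSG00000035566, chromosome 14), a delta2 protocadherin of axon extension, came next in SCG+PSC. Its normalized counts were 2184, 2000 and 1068 in SCG, 2626, 2633 and 3249 in SCG+PSC and 2523, 2438 and 1387 in SCG+MEF. SCG+PSC lay above both other groups in all libraries. The log2 fold change against SCG was 0.76 (SE 0.289, limma, adjusted p 1, 0.125 with the block). Replicate 3 carried most of it, since with the block it fell to 0.33 (SE 0.0703) without that set of libraries. Against SCG+MEF the log2 fold change of Pcdh17 was 0.47 (SE 0.289) and 0.08 with the block and without replicate 3.

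Pcdhgc3 (ENSMUSG00000102918, chromosome 18 from 37939416 to 37975014), the most abundant clustered gene, had a small and even difference. Its normalized counts were 7706, 9138 and 7300 in SCG, 10383, 12051 and 9280 in SCG+PSC, and 7873, 9715 and 7046 in SCG+MEF. SCG+PSC was above SCG in every library, and the log2 fold change was 0.39 (SE 0.151, limma, adjusted p 1). With the block the SE was 0.0666 and the adjusted p 0.0140, past the p threshold and under the fold threshold. Against SCG+MEF, where the groups overlapped, it was 0.37 with an adjusted p of 0.0321 with the block. The other C-type gamma genes had smaller counts and passed neither with nor without the block. Pcdhgc5 had a log2 fold change of 0.43 (SE 0.250, limma, adjusted p 1, 0.173 with the block) against SCG. Pcdhgc4, a gene known for the survival of interneurons and picked here after its values were seen, had 63.8, 56.1 and 61.5 in SCG and 77.7, 82.1 and 64.1 in SCG+PSC, with a log2 fold change of 0.29 (SE 0.237).

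In SCG+PSC against SCG 0 of the 69 protocadherins tested passed the threshold without the block (3 of 15908 protein-coding genes did, 0.0189%). With limma, edgeR and DESeq2, 3 members each had an unadjusted p under 0.05 (659 of the 15908 protein-coding genes in limma), and 0 passed by any of them without a block. DESeq2 without a block called 0.345% of protein-coding genes. With the block 1 member passed in each of limma, edgeR and DESeq2, Pcdh8, beside 1.94%, 2.02% and 2.6% of protein-coding genes. The groups did not overlap for 4 members, Pcdh8, Pcdh17, Pcdhgc3 and Pcdhgc4, all higher in SCG+PSC, and for 7.12% of protein-coding genes. Pcdhgb8, the B-type gamma gene with the largest fold change, had 37.5, 43.8 and 14.3 in SCG and 49.9, 39.5 and 40.6 in SCG+PSC, with 23.2 in replicate 4. Its log2 fold change was 0.57 (SE 0.455, limma, adjusted p 1), and from 0.09 to 0.86 without 1 library. The alpha genes had a median log2 fold change of -0.04 (13 tested, 6 above 0), the beta genes -0.04 (22 tested, 9 above 0), the gamma genes 0.11 (22 tested, 19 above 0) and the unclustered genes 0.13 (12 tested, 7 above 0). Over all 69 the median was 0.02 with 41 above 0, beside 0.01 for all protein-coding genes, and with quantile normalization it was -0.04 with 25 above 0. The counts above 0 were then 3, 3, 12 and 7 for alpha, beta, gamma and unclustered genes.

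In SCG+MEF against SCG also 0 of 69 passed without the block in limma and edgeR and 1, Pcdh8, in DESeq2, with 1 unadjusted p under 0.05 by each tool (388 of the 15908 protein-coding genes in limma). Of protein-coding genes 0.0189% passed in limma and 0.132% in DESeq2. With the block 1 member passed in each of limma, edgeR and DESeq2, Pcdh8, beside 0.239%, 0.226% and 0.658% of protein-coding genes. Pcdh8, Pcdhb16 and Pcdhgb1 were the 3 members whose groups did not overlap, beside 4.98% of protein-coding genes. Pcdhb16 and Pcdhgb1, named after their values were seen, had log2 fold changes of 0.23 (SE 0.142) and 0.15 (SE 0.156). Pcdh20 had 1402, 928 and 1441 in SCG and 660.0, 638 and 1520.5 in SCG+MEF, so that SCG+MEF replicate 3 went the other way, and its log2 fold change was -0.52 (SE 0.310, limma, adjusted p 1). Pcdha10 had 84.0, 61.8 and 106.6 in SCG and 126.7, 87.6 and 138.9 in SCG+MEF, a log2 fold change of 0.49 (SE 0.291, limma, adjusted p 1, 0.543 with the block). Alpha genes had a median log2 fold change of 0.23 with 11 of 13 above 0, and over all 69 members the median was 0.09 beside 0.03 for all protein-coding genes, with 49 above 0 (44 with quantile normalization). The alpha sum rose in replicates 1 and 2 (2539 to 3092 and 1571 to 2378) and fell in replicate 3 (3949 to 3734). Without SCG replicate 2 the median of all 69 members was 0.003 with 35 above 0.

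In SCG+PSC against SCG+MEF 0 of 69 members passed in limma and in edgeR with or without the block (in limma 0% of protein-coding genes without, 1.14% with it, and 1.29% in edgeR with it). Limma and edgeR without the block gave 3 and DESeq2 gave 4 members an unadjusted p under 0.05 (488 of the 15908 protein-coding genes in limma). DESeq2 called 0 members without the block, beside 0.113% of protein-coding genes, and 1 with it, Pcdh8, beside 2.29%. The groups did not overlap for 5 members, beside 7.01% of protein-coding genes. Pcdh7, Pcdh11x, Pcdh15 and Pcdh17 were higher with mPSC1 cells and Pcdhb16 with NIH 3T3 cells, but Pcdhb16 was at 343.9 in SCG+PSC replicate 4, above the 288.2 to 336.5 of SCG+MEF. Pcdh7 had 3035, 2954 and 3039 in SCG+PSC and 2085, 2592 and 2078 in SCG+MEF, with 2815, 3103 and 2266 in SCG. Its log2 fold change between the cocultures was 0.43 (SE 0.138, limma, adjusted p 1, 0.0678 with the block). Pcdh11x had 125.7, 134.8 and 113.2 in SCG+PSC and 76.0, 85.8 and 75.0 in SCG+MEF, a log2 fold change of 0.65 (SE 0.282, limma, adjusted p 1, 0.250 with the block), but 70.6 in SCG+PSC replicate 4, below all of them. Pcdh15 had 74.8, 73.0 and 101.5 in SCG+PSC and 62.9, 62.2 and 27.4 in SCG+MEF, a log2 fold change of 0.78 (SE 0.515, limma, adjusted p 1, 0.481 with the block). In this comparison the median log2 fold change was -0.34 for alpha genes (3 of 13 above 0), -0.13 for beta genes (1 of 22) and 0.04 for gamma genes (15 of 22), and 0.10 for unclustered genes (8 of 12). With quantile normalization the counts above 0 were 2, 0, 13 and 8, and the difference between clusters was not tested. The beta genes did not go down in every pair. Their summed counts were 4544, 3647 and 5245 in SCG+PSC and 5304, 4404 and 4736 in SCG+MEF, so replicate 3 went the other way. SCG+PSC replicate 4, at 5587, was above every SCG+MEF library. The neuronal sums were lower in SCG+PSC than in SCG+MEF in all 3 pairs (208830 against 234034, 143673 against 181214 and 253372 against 273871), and their part in the alpha values was not tested. Of all protein-coding genes tested 45.6% lay above 0, with a median of -0.02.

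Pcdh10 did not follow its pattern of the fibroblasts in the explants. Its normalized counts were 4834, 3706 and 7192 in SCG, 5009, 3948 and 5709 in SCG+PSC and 5544, 4416 and 6459 in SCG+MEF, so the 3 groups overlapped. The log2 fold change was -0.06 (SE 0.238) in SCG+PSC and 0.10 (SE 0.238) in SCG+MEF against SCG. Pcdh1 likewise had log2 fold changes of 0.11 (SE 0.150) and -0.01 (SE 0.150), Pcdh18 of -0.28 (SE 0.226) and -0.37 (SE 0.226), Pcdh19 of -0.05 (SE 0.277) and -0.09 (SE 0.277), and Pcdhac2 of 0.12 (SE 0.342) and 0.31 (SE 0.342).

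**Figure D4:**
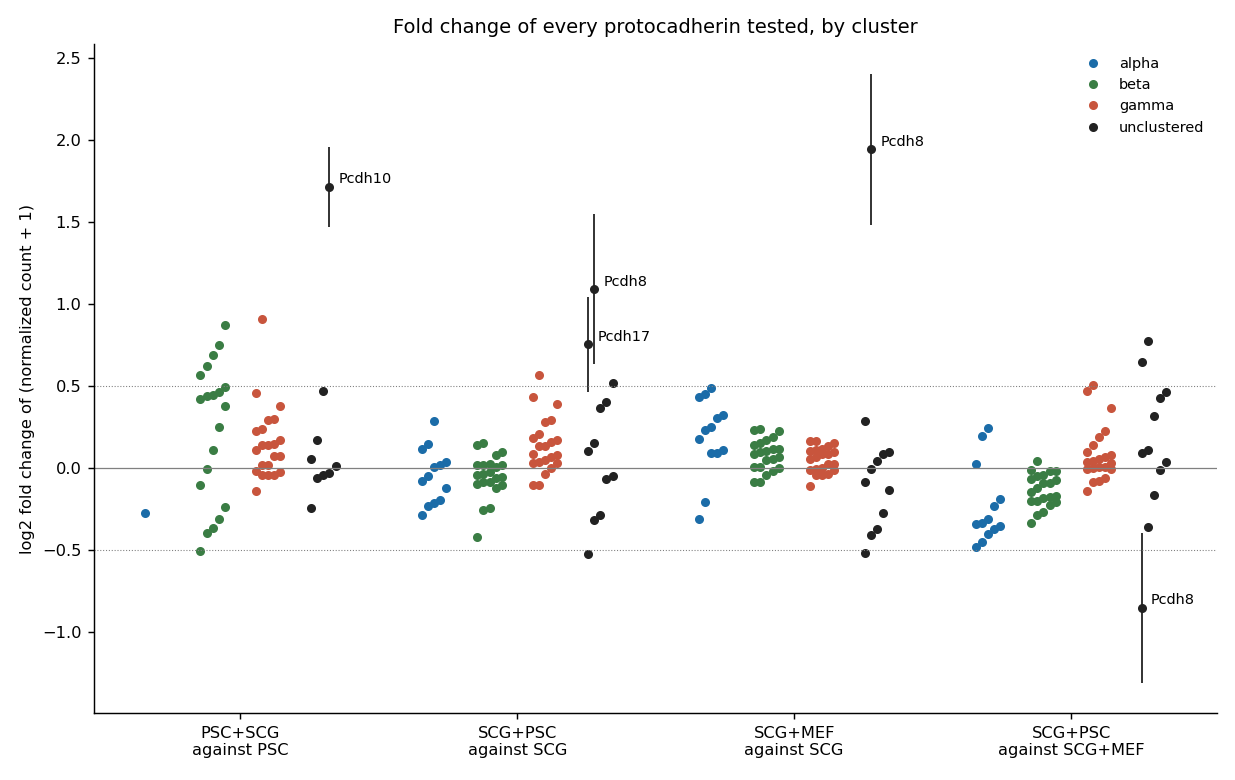
Log2 fold change (limma, normalized count + 1, no block) of every protocadherin tested in the 4 comparisons, with alpha genes in blue, beta in green, gamma in red and unclustered genes in black. Each point is 1 gene, error bars on named genes are the SE, and dotted lines mark the fold threshold of 0.5 in either direction. Pcdh10 at 1.72 and Pcdh8 at 1.94 are the points farthest from 0 in their comparisons, while nearly all clustered genes of the SCG comparisons lie within the dotted lines.

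Within the explants the alpha cluster varied more between replicates than between groups. Its summed normalized count was 2539, 1571 and 3949 in SCG, 2749, 1913 and 3242 in SCG+PSC and 3092, 2378 and 3734 in SCG+MEF. Replicate 2 was the lowest library for 13, 12 and 11 of the 13 alpha genes in SCG, SCG+PSC and SCG+MEF, and replicate 3 the highest for 13, 11 and 10. The summed neuronal markers had the same order in every group, 219338, 124905 and 293006 in SCG, 208830, 143673 and 253372 in SCG+PSC and 234034, 181214 and 273871 in SCG+MEF. The summed gamma counts ran otherwise, 14325, 15135 and 13383 in SCG, 17375, 18363 and 16075 in SCG+PSC and 14721, 16075 and 13316 in SCG+MEF, with replicate 2 highest. That order was the order of the C-type gamma genes, which summed to 8157, 9518 and 7602 in SCG. The summed A-type and B-type gamma genes had replicate 2 lowest in every group, as the alpha genes did. They were at 6168, 5617 and 5782 in SCG, 6442, 5796 and 6368 in SCG+PSC and 6423, 5922 and 6007 in SCG+MEF. The part of the share of neurons in these sums was not tested.

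Other cadherins, and genes that regulate or act with protocadherins, passed no threshold. Of 49 other cadherins 30 were tested in PSC and 41 in SCG, of 18 regulators of the clusters such as Ctcf, the cohesin subunit Rad21 and the repressor Smchd1 all 18, and of 25 partners and processing enzymes such as Cyfip1 of the WAVE complex and the sheddase Adam10 all 25. None of these was past the threshold in any of the 4 comparisons in limma with or without the block. Without the block at most 2 of the other cadherins and 0 of the other lists had an unadjusted p under 0.05 in a comparison. With the block at most 6 of the other cadherins, 2 of the regulators and 4 of the partners did. Those were the counts of SCG+PSC against SCG, where 2108 of the 15908 protein-coding genes did. Median log2 fold changes of the other cadherins were 0.07 in PSC+SCG, 0.20 in SCG+PSC and 0.07 in SCG+MEF against their controls, those of the regulators 0.01, 0.01 and 0.04, and those of the partners -0.01, 0.01 and 0.00.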

How the data were processed

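The authors aligned reads to GRCm39 with STAR (2.7.10b), counted them by gene and strand, and used DESeq2 (1.38.3) in R (4.2.2) with the experimental batch as a covariate, versions per the submitters' processing notes. The deposited values are a signal: counts per gene for 56941 genes that the authors divided by a size factor for each library, separately for the PSC and the SCG table. Whole multiples of 1 step gave back reads for 14 libraries (within 0.1), but not for PSC+SCG replicate 1 and SCG+PSC replicate 4.

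Groups and replicate numbers came from the labels. Log2(normalized count + 1) of genes with a sum of at least 10 was tested with limma 3.58.1 (R 4.3.3; empirical Bayes with trend, Benjamini-Hochberg over all genes tested). A gene passed with an adjusted p no higher than 0.05 and a log2 fold change no smaller than 0.5. SCG, SCG+PSC and SCG+MEF replicates 1 to 3 shared 1 fit. Alternatives were a replicate block, other pseudocounts, filters and normalization, left-out libraries, edgeR 4.0.16 and DESeq2 1.42.0. Deviations from group means correlated in all same-numbered pairs (r from 0.476 to 0.736 in PSC, 0.267 to 0.698 in SCG), so the numbers were taken to pair the libraries. This rests on the numbers and the data alone, since no label ties a library to the authors' batches, and the main fit departs from their model in having no batch term. Own exon bases came from GENCODE M39 on GRCm39, a later release than the authors' M33. Only limma without a block was tried on simulated data, for PSC+SCG against PSC and SCG+PSC against SCG, with no replicate effect in the simulation. The block, edgeR and DESeq2 fits were not.

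The genes, lists and tests were chosen with earlier results of these data known. Genes were named by a rule: every protocadherin past the threshold with or without the block, Pcdh10, in each table the 6 unclustered and the 2 alpha, beta and gamma genes with the highest level per kb, and in each comparison the 3 members with the largest fold change at a mean of at least 10 in a group. The level of 1 neuronal marker is not reported here.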

Additional observations from a re-analysis of the deposited data

Results flagged for a closer look

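Pcdhb9 in SCG+PSC had 1 library apart from the others, at 307.2 normalized counts in replicate 2 against 451.8, 475.4 and 463.0 in replicates 1, 3 and 4. The gap to the nearest library was 0.86 of the range, above Dixon's 95% critical value for 4 libraries. Of the 24 named genes this was 1, and chance alone gives about 1 in 20.

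Pcdh8 in SCG+PSC replicate 4, a library outside the main comparisons, was at 254.2 normalized counts, above the 35.2 to 74.8 of the SCG libraries.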

How the results depend on the processing

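Of 20 fold changes of protocadherins that were recomputed under every alternative run, 0 changed sign. Without a block, each fit that left out 1 library gave 0 members past the threshold in all 4 comparisons (range 0 to 0). The replicate block gave 1 in PSC+SCG against PSC (Pcdh10), 1 in SCG+PSC against SCG and 1 in SCG+MEF against SCG (Pcdh8 in both), and changed no other call. The block without 1 set of same-numbered libraries, chosen after seeing the data, gave 1 in PSC+SCG each time, 0 in SCG+PSC against SCG each time, between 0 and 1 in SCG+MEF against SCG, and between 0 and 1 in SCG+PSC against SCG+MEF, where Pcdh7 passed without replicate 2 (log2 fold change 0.54, adjusted p 0.0347). EdgeR with the replicate block gave 1 for SCG+PSC and 1 for SCG+MEF against SCG, DESeq2 gave 1 for SCG+MEF against SCG, and DESeq2 with the replicate block, also added after seeing the data, gave 1 in each of the 3 SCG comparisons, all Pcdh8. Replacing SCG+PSC replicate 3 with replicate 4 gave 0. EdgeR and DESeq2 were not run for PSC, since reads of PSC+SCG replicate 1 were not recovered. Without 1 library the log2 fold change ranged from 1.51 to 1.91 for Pcdh10 in PSC+SCG, from 0.70 to 1.37 for Pcdh8 in SCG+PSC and from 1.53 to 2.22 in SCG+MEF, and from 0.43 to 0.95 for Pcdh17 in SCG+PSC. Quantile normalization left 25 of the 69 members above 0 in SCG+PSC against SCG, where 41 were without it. The median log2 fold change over all members tested was less stable. Without 1 library it ranged from -0.06 to 0.46 in PSC+SCG against PSC and from -0.04 to 0.14 in SCG+PSC against SCG. The range was 0.003 to 0.14 in SCG+MEF against SCG and -0.12 to 0.05 in SCG+PSC against SCG+MEF. With all 4 SCG+PSC libraries the median of SCG+PSC against SCG+MEF was 0.002, with 35 of 69 above 0. Per kb of all exons 25 rather than 30 members reached 10 in PSC and 64 rather than 66 in SCG. The pseudocount draws the fold changes of genes with few reads toward 0.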
